A study of Ovis aries with 20 samples.

Results

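The step from day 120 of gestation to birth was described in the trachea of wild-type (WT) and cystic fibrosis (CF) sheep. All libraries labelled day 147, the day of birth, were compared with all libraries labelled day 120, with genotype as a covariate. This took 8 of the 20 libraries of the series, 4 at birth and 4 at day 120. Each of the 4 groups (WT day 120, WT birth, CF day 120, CF birth) held 2 libraries. The other 12 libraries came from earlier ages and entered only an alternative fit over all 20 libraries. Total RNA was taken with TRIzol from frozen tissue that the labels call tracheal epithelial, and was sequenced as bulk RNA. The labels name WT subjects as healthy donors and CF subjects as CF donors. For the CF allele, the sex and breed of the lambs and whether the libraries of a group came from separate animals, the sources used here give nothing.

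The trachea is a tube of surface epithelium, submucosal glands, cartilage, smooth muscle and connective tissue. Before birth the airway epithelium secretes chloride and liquid into the lumen through channels such as CFTR, the channel mutated in cystic fibrosis. Around birth it turns to absorbing sodium and water through the epithelial sodium channel, the sodium pump and aquaporins, under rising fetal cortisol in sheep. In the same weeks growth slows, matrix is remodelled and the secretory cells begin to make the mucus and defence proteins of the postnatal airway.

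The libraries held 51889216 to 76983471 counted reads. Markers of tracheal epithelium were present in every library: the club cell secretoglobin SCGB3A2 stood at 9209.9 to 79698 CPM (counts scaled to the library's total and by TMM), the ciliated cell regulator FOXJ1 at 303 to 814 and the basal keratin KRT5 at 235 to 707. The fibrous collagen COL1A1 (2979.7 to 11834 CPM) and the cartilage collagen COL2A1 (365 to 3143) were also abundant, so the tissue was more than epithelium. Transcripts of neighbouring or distant tissue appeared in some libraries: the surfactant gene SFTPB was at 133 CPM in WT day 120 replicate 1, and the brown fat gene UCP1 was at 263 in WT birth replicate 1 and 145 in CF birth replicate 2, against 0.0688 to 9.60 in the other 6. In bulk tissue, fewer cells of a type and less RNA per cell cannot be told apart. Since nothing says that replicates were separate animals, p-values speak only for the spread among these samples, part or all of which may be technical. Both CF birth libraries carry the same sample identifier, although their counts differed far beyond counting noise. Each of the other 6 carries an identifier of its own, which does not by itself show separate animals.

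The largest axis of variation among the 8 libraries did not follow age. The first principal component took 62.1% of the variance and separated libraries by how their values depended on gene length. This length slope is the slope, on log2 gene length, of a library's log2 CPM minus each gene's mean over the 8 libraries. Its sign thus says only whether a library lay above or below the average of these libraries. It was computed from the same counts that were tested. The slope was positive in 1 library of each group (0.112 to 0.149) and negative in the other (-0.219 to -0.0407). Each age therefore held 2 libraries of either sign. Within a group the replicates therefore differed in a way that age does not, and a fit with the length slope as a covariate was run beside the edgeR quasi-likelihood test.

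No gene passed that edgeR test at an adjusted p of 0.05. Of 19072 genes tested over both genotypes, 0.0% were called, and the lowest edgeR adjusted p was 0.107, for FCGR2B. The unadjusted p was under 0.05 for 959 genes (5.03%), 408 higher (2.14%) and 551 lower (2.89%) at birth. limma-voom also called 0 genes (1006, or 5.27%, at an unadjusted p under 0.05), whereas DESeq2 called 245 (1.28%), 118 higher (0.619%) and 127 lower (0.666%). In the fit with the length slope edgeR called 34 genes (0.178%), 15 higher (0.0786%) and 19 lower (0.0996%) at birth, and all 34 had the same sign in WT as in CF. That fit has 1 age term for both genotypes, so genes with opposite changes could hardly be called. With all 20 libraries edgeR called 27 of 20097 genes (0.134%), 10 higher (0.0498%) and 17 lower (0.0846%). Only HEY1, SOX12 and CBX2 were in both of these lists. In the values below, each log2 fold change is birth minus day 120 over both genotypes with its standard error unless a genotype is named. Folds and errors come from the fit of the 8 libraries without the length slope, also where an adjusted p of another fit follows. The genes named were picked after their values were seen, from those called in these alternatives, from members of the gene lists and from a set of key genes.

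A gene whose 4 birth libraries all lay above or all below its 4 day 120 libraries is described as not overlapping. This held for 312 genes higher at birth (1.64%) and 473 lower (2.48%). Some genes separate by random order alone, so these shares by themselves do not show a change with age. Scaled by library size alone, in place of TMM, the counts were 195 higher and 690 lower, and the median of all genes moved by -0.07 on the log2 scale. The counts of list members below are read against these shares. Counts of members higher or lower in both genotypes refer to the sign of the fold alone. Among all 19072 genes, 5028 were higher and 4808 lower in both genotypes. Many list medians moved with single libraries, so a median below is followed, where it moved by over 1.5 times, by its lowest and highest value with 1 library left out, or by the value that moved most. No median of a list in WT was tested against the one in CF.

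**Figure D1:**
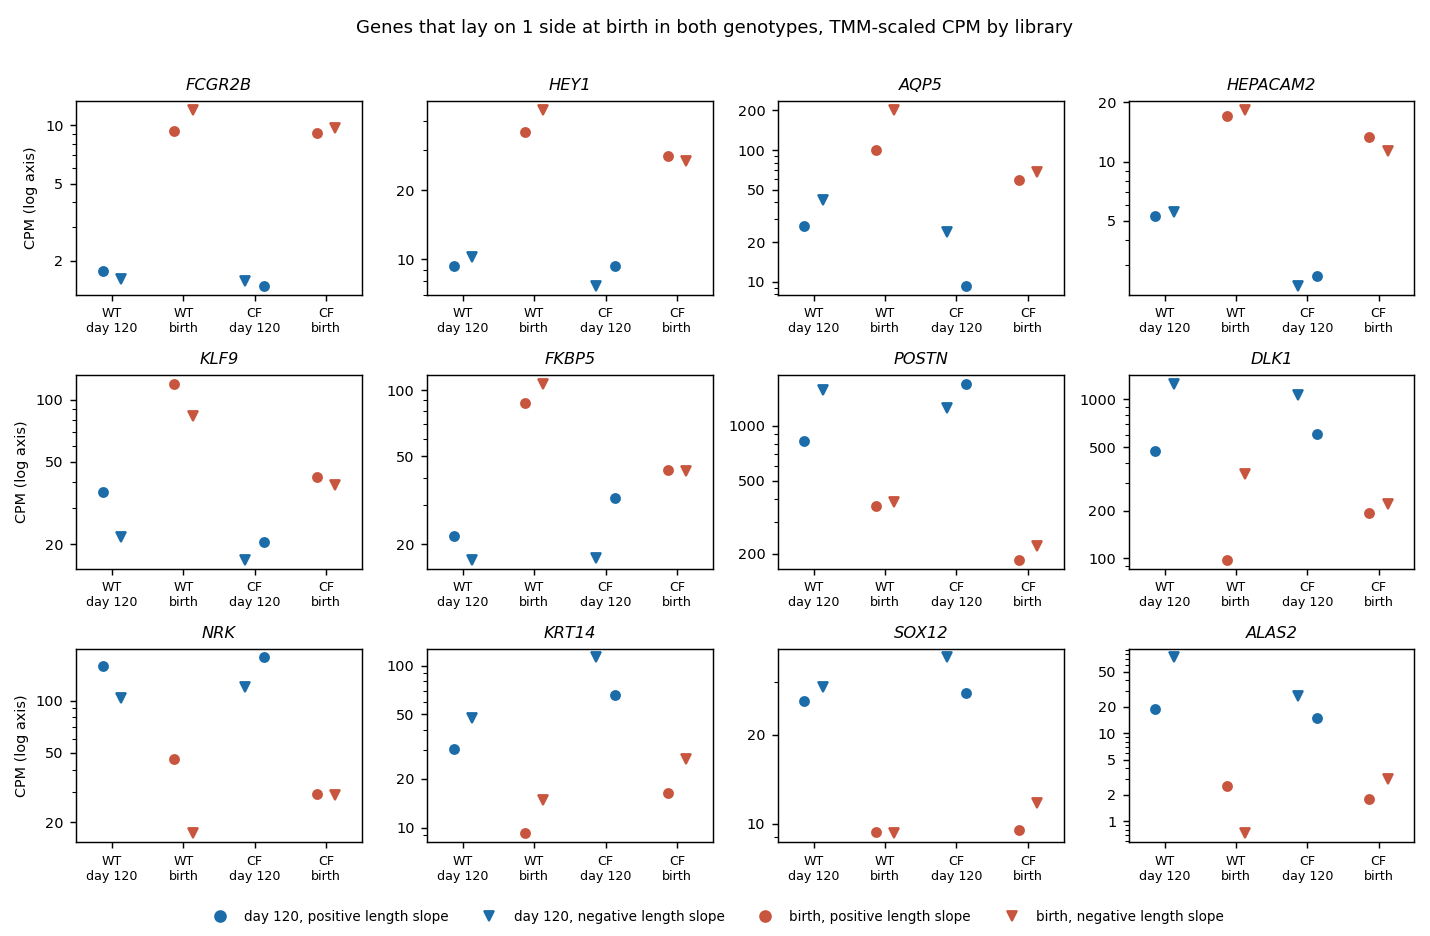
TMM-scaled CPM (log axis) of 12 genes in the 8 libraries, grouped as WT day 120, WT birth, CF day 120 and CF birth; each point is 1 library, blue for day 120 and red for birth, and the marker shows the sign of the length slope. In each panel the 4 birth libraries lie on 1 side of the 4 day 120 libraries, as for FCGR2B (1.48 to 1.76 CPM at day 120, 9.11 to 11.99 at birth).

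The gene closest to the threshold was FCGR2B, an inhibitory receptor for IgG found on B cells, myeloid cells and endothelium (chromosome 1, 110980373 to 110997288, plus strand, as the deposited table gives it without naming a build). FCGR2B stood at 1.76 and 1.62 CPM in WT and 1.57 and 1.48 in CF at day 120, and at 9.35 and 11.99 in WT and 9.11 and 9.64 in CF at birth. The groups were far apart, with a log2 fold change of 2.64 ± 0.24 (SE) and an edgeR adjusted p of 0.0063 with the length slope. The macrophage and monocyte list as a whole did not follow it: 1 of 35 members, MS4A7, was higher without overlap, and the median log2 fold change was 0.22 (0.09 without WT birth replicate 1 to 0.42 without CF birth replicate 1), with 0.85 in WT and -0.26 in CF (-0.47 without CF birth replicate 2 to -0.17 without CF day 120 replicate 1).

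HEY1, a transcriptional repressor downstream of Notch that is expressed in endothelium and other cells, came next (chromosome 9, 55686458 to 55690363, minus strand). It stood at 9.35 and 10.2 CPM in WT at day 120 and at 7.63 and 9.32 in CF, against 35.8 and 44.7 in WT and 28.1 and 26.8 in CF at birth. The log2 fold change was 1.87 ± 0.19 (SE), with an edgeR adjusted p of 0.125 in the test without a covariate, 0.00921 with the length slope and 0.008 with all 20 libraries. The other endothelial markers did not share this pattern: of 38 tested, HEY1 alone was higher and FLT4, the lymphatic receptor of VEGF-C, alone was lower without overlap, and the median was 0.07 (-0.33 without WT birth replicate 1 to 0.21 without CF birth replicate 1).

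Water and ion transport genes were examined as the machinery of liquid clearance. AQP5, the apical water channel of glands and secretory epithelium (chromosome 3, 135974463 to 135978295, minus strand), was at 26.3 and 41.9 CPM in WT and 23.8 and 9.25 in CF at day 120. At birth AQP5 reached 99.7 and 201 CPM in WT and 59.8 and 68.5 in CF. All birth values exceeded all day 120 values, with a log2 fold change of 2.05 ± 0.37 (SE) and edgeR adjusted p of 0.0063 with the length slope against 0.421 without it. AQP3, the basolateral water channel of basal cells, was at 84.5 to 156 CPM at day 120 and 198 to 261 at birth (1.05 ± 0.21). KCNN4, a calcium-activated potassium channel, was at 0.924 to 2.74 and 4.30 to 5.92 (1.59 ± 0.39), and ANO1, a calcium-activated chloride channel, at 25.7 to 41.8 and 42.2 to 52.5 (0.45 ± 0.20). These were the 4 of 23 genes of chloride and fluid secretion that were higher without overlap (17.4%, against 1.64% of all genes), none was lower, and the list's median was 0.17. That median ranged from 0.03 without WT birth replicate 1 to 0.72 without WT day 120 replicate 1, and it was 0.08 by library size alone.

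CFTR itself (chromosome 4, 50644000 to 50864925, minus strand) overlapped between the ages. It was at 33.5 and 15.8 CPM in WT day 120, 26.2 and 18.2 in WT birth, 13.8 and 29.5 in CF day 120 and 35.9 and 25.0 in CF birth. In each group the library with the positive length slope was the higher one, and the difference between ages, 0.17 ± 0.36 (SE), was smaller than its error. CFTR transcript was present in CF trachea at a level that overlapped WT.

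Of 21 genes of sodium absorption, 4 were higher without overlap (19.05%) and none lower, with a median of 0.34 (0.12 without CF day 120 replicate 2 to 0.41 without CF day 120 replicate 1). By library size alone none of them separated the ages. ATP1B1, the beta subunit of the sodium pump, was at 143 and 79.7 CPM in WT and 105 and 128 in CF at day 120, and at 243 and 178 in WT and 241 and 222 in CF at birth. Its log2 fold change of 0.95 ± 0.24 (SE) had an edgeR adjusted p of 0.0459 with the length slope. The membrane proteases TMPRSS4 (6.67 to 26.5 against 26.7 to 68.7 CPM, 1.496 ± 0.23) and TMPRSS2 (26.4 to 42.0 against 49.4 to 87.0, 0.82 ± 0.25) were also among the 4. The channel subunit SCNN1A overlapped, at 4.88 to 22.3 CPM at day 120 and 11.1 to 28.5 at birth.

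Ionocytes are rare airway cells rich in CFTR. HEPACAM2, an adhesion protein also found in other rare epithelial cells, was at 5.29 and 5.54 CPM in WT and 2.33 and 2.63 in CF at day 120, and at 17.0 and 18.3 in WT and 13.3 and 11.3 in CF at birth. The replicates lay close together and the log2 fold change was 2.00 ± 0.24 (SE), with an edgeR adjusted p of 0.0192 with the length slope. It was the only 1 of 15 ionocyte genes without overlap. FOXI1, the transcription factor that specifies ionocytes, went in opposite directions by genotype, from 2.09 and 1.45 to 0.531 and 0.898 CPM in WT and from 0.389 and 0.370 to 1.74 and 1.19 in CF. These low levels gave a CF minus WT difference of 3.25 with an edgeR adjusted p of 1 and a DESeq2 adjusted p of 0.0215.

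The glucocorticoid response list held 27 tested genes, of which 4 were higher without overlap (14.8%), none lower and 18 higher in both genotypes. The median was 0.49 over both genotypes, 0.85 in WT and 0.29 in CF. With 1 library left out the WT median lay between 0.51 (without WT day 120 replicate 2) and 1.35 (without WT day 120 replicate 1), and the CF median between 0.29 and 0.78 (without CF day 120 replicate 2). KLF9, a transcription factor induced directly by the glucocorticoid receptor, was at 35.8 and 21.6 CPM in WT and 16.9 and 20.6 in CF at day 120, and at 119 and 83.1 in WT and 42.4 and 38.8 in CF at birth. The log2 fold change was 1.47 ± 0.26 (SE) and the edgeR adjusted p was 0.0459 with the length slope. FKBP5, a chaperone that restrains the receptor, was at 17.0 to 32.3 CPM at day 120, and at 86.9 and 107 in WT and 43.4 and 42.9 in CF at birth (1.56 ± 0.38). PDK4, which diverts pyruvate from oxidation, was at 1.89 to 6.57 CPM at day 120, and at 103 and 80.0 in WT but 9.68 and 27.1 in CF at birth. GLUL, glutamine synthetase, was at 414 to 547 CPM at day 120 and 770.4 to 1089 at birth (0.93 ± 0.23).

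2 other steroid-responsive genes were examined, PER1 by the sign of the length slope and TSC22D3 by genotype. PER1, a clock gene, was called with the length slope (edgeR adjusted p of 0.0407), although its levels overlapped. Libraries with a positive slope had 44.9 and 46.9 CPM at day 120 and 93.7 and 81.7 at birth, and those with a negative slope 9.55 and 11.3 against 14.1 and 48.5. TSC22D3, a glucocorticoid-induced leucine zipper, was at 39.4 and 45.6 CPM in WT day 120 and 109.6 and 124 in WT birth, but at 58.9 and 41.7 in CF day 120 and 36.0 and 55.5 in CF birth. The CF minus WT difference of TSC22D3, -1.59, had an edgeR adjusted p of 1.

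**Figure D2:**
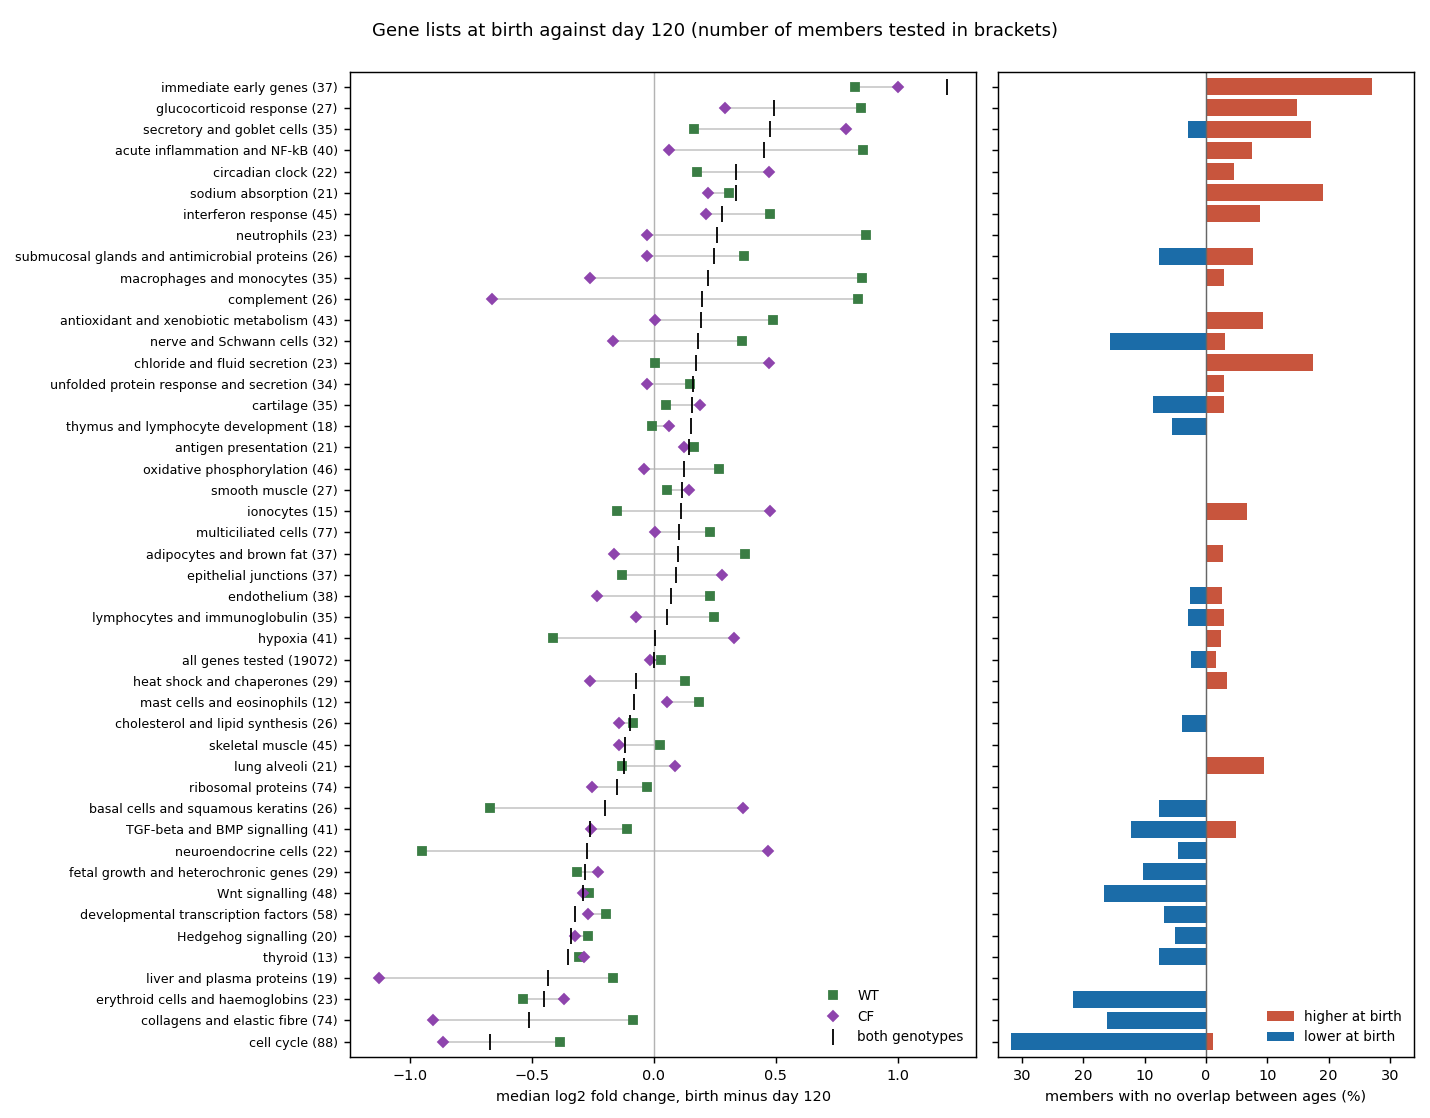
Left, the median log2 fold change (birth minus day 120) of each gene list in WT (squares), CF (diamonds) and both genotypes (bars), with the number of members tested in brackets; right, the percentage of members with no overlap between the ages, higher (red) or lower (blue) at birth. Immediate early genes have the highest median (1.20) and cell cycle genes the lowest (-0.67), and all genes tested lie at -0.00082.

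Secretory and goblet cell genes were higher at birth in 6 of 35 cases without overlap (17.1%) and lower in 1, MUC4, with a median of 0.48. The list's median was 0.16 in WT (-0.07 without WT birth replicate 2 to 0.42 without WT day 120 replicate 1) and 0.79 in CF. BPIFB1, a bactericidal family protein secreted by goblet and gland cells, was at 6.79 and 26.1 CPM in WT and 27.9 and 35.0 in CF at day 120, and at 428 and 1104 in WT and 85.6 and 94.7 in CF at birth. Its log2 fold change was 3.53 ± 1.05 (SE), and the edgeR adjusted p was 0.0269 with all 20 libraries but 0.687 with the 8. PIGR, which carries IgA across the epithelium, was at 260.0 to 655 CPM at day 120 and 1019.8 to 1616 at birth (1.44 ± 0.35). SPDEF, the master transcription factor of goblet cells, was at 11.9 to 27.7 and 29.3 to 138 CPM (1.63 ± 0.49). ZG16B, a secreted lectin, was at 3.22 to 15.2 and 18.1 to 58.3 CPM (2.40 ± 0.61). SCGB1A1, the classical club cell secretoglobin, was barely present, at 0 to 1.38 CPM at day 120 and 1.86 to 19.1 at birth. Reads may be split between near-identical members of the BPIF family, so the single values of those genes are uncertain.

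The gel-forming mucins overlapped between the ages over the 8 libraries. MUC5B was at 5.63 and 0.465 CPM in WT day 120, 19.6 and 0.834 in WT birth, 0.707 and 7.35 in CF day 120 and 18.5 and 2.33 in CF birth, and in each group the library with the positive length slope was the higher. Within each slope sign both birth values of MUC5B lay above both day 120 values. With 2 libraries a side, such separation is frequent even where values are in random order, so it does not by itself show a change. Libraries with a positive slope had 5.63 and 7.35 CPM at day 120 and 19.6 and 18.5 at birth. Those with a negative slope had 0.465 and 0.707 against 0.834 and 2.33. MUC5AC was at 0.138 to 2.90 CPM at day 120 and 0.257 to 5.47 at birth. Of the 26 gland and antimicrobial genes, LPO, the airway lactoperoxidase, was higher without overlap (907 to 1777 CPM against 2157 to 2640.2), as was TCN1, a vitamin B12 binder (29.4 to 62.7 against 84.6 to 159). KRT14 and the oxidase DUOX1 were lower.

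Within the protein secretion list, CREB3L4, a membrane-bound transcription factor of secretory cells, was the only 1 of 34 members without overlap. It was at 10.8 and 10.8 CPM in WT and 9.73 and 7.24 in CF at day 120, and at 24.1 and 38.1 in WT and 19.4 and 18.2 in CF at birth (1.34 ± 0.23, edgeR adjusted p of 0.0369 with the length slope). Other genes called higher with the length slope were ATP7B, a copper transporter (18.7 to 44.5 CPM against 51.3 to 107, 1.20 ± 0.33), and MOCS1, an enzyme of molybdenum cofactor synthesis (12.9 to 15.8 against 24.3 to 37.1, 1.04 ± 0.18). They also included MCL1, an inhibitor of apoptosis (97.1 to 118 against 169.6 to 192, 0.74 ± 0.16), and CCL26, a chemokine that attracts eosinophils (0.370 to 0.895 against 1.86 to 6.59, 2.57 ± 0.51). LMAN1L, related to a lectin cargo receptor of the secretory pathway, was at 0.354 to 1.34 CPM at day 120 and 5.19 to 10.04 at birth (3.08 ± 0.50), and was not called with the length slope or with all 20 libraries, but was called with both together (edgeR adjusted p of 0.0152) and by DESeq2 (adjusted p of 1.26e-07).

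Many cell cycle genes were lower at birth. Of 88 tested, 28 were lower without overlap (31.8%, against 2.48% of all genes), 1 was higher (PLK1, a mitotic kinase), and 66 were lower in both genotypes. The median was -0.67, with -0.39 in WT and -0.87 in CF, and across the alternatives 25 to 41 members were lower without overlap. Among them were genes of DNA replication such as CDC6, which loads the helicase (3.56 to 5.14 CPM against 1.66 to 2.65, -1.12 ± 0.28), and MCM2, a subunit of that helicase (37.4 to 57.0 against 26.6 to 36.0, -0.72 ± 0.20). Genes of mitosis included CDCA8, of the chromosomal passenger complex, at 8.25 and 10.9 CPM in WT and 12.2 and 8.73 in CF at day 120, and at 6.82 and 6.26 in WT and 2.84 and 3.36 in CF at birth. CDCA8 was called with all 20 libraries (edgeR adjusted p of 0.0451), as was the spindle gene NUSAP1 (25.7 to 27.1 CPM against 12.2 to 20.2, -0.78 ± 0.20). The proliferation marker MKI67 overlapped (10.8 to 45.1 against 5.77 to 38.0 CPM), with the higher value in the positive-slope library of each group.

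2 genes linked to growth, both outside that list, were called lower in the fit with the length slope. STMN1, a microtubule destabiliser of dividing cells, was at 97.0 and 198 CPM in WT and 187 and 99.9 in CF at day 120, and at 48.6 and 89.1 in WT and 33.3 and 56.3 in CF at birth (-1.39 ± 0.37, edgeR adjusted p of 0.0253). LMNB1, a nuclear lamin, was at 49.7 to 56.6 CPM at day 120 and 29.7 to 33.0 at birth (-0.77 ± 0.15, edgeR adjusted p of 0.0452). The replicates of LMNB1 were among the closest of the genes described.

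Genes of fetal growth were likewise lower where they differed. Of 29 tested, 3 were lower without overlap (10.3%, against 2.48% of all genes) and none higher. The median was -0.28 (-0.64 without WT birth replicate 1 to -0.23 without WT day 120 replicate 1). DLK1, an imprinted Notch-like ligand of fetal progenitors, was at 476 and 1254 CPM in WT and 1065 and 602 in CF at day 120, and at 98.1 and 342 in WT and 192 and 221 in CF at birth. This is a log2 fold change of -1.99 ± 0.49 (SE), with an edgeR adjusted p of 0.559. With the length slope the fold was -2.02 ± 0.16 (SE) and the edgeR adjusted p 0.0097. MEST, an imprinted hydrolase, was at 116 to 208 CPM at day 120, and at 49.8 and 79.5 in WT and 37.0 and 33.1 in CF at birth (-1.59 ± 0.34). IGF2, the imprinted fetal growth factor, overlapped, at 33.1 to 235 against 15.1 to 111 CPM. NRK, an X-linked kinase best known from placenta (124261572 to 124388457, plus strand), was at 158 and 103 CPM in WT and 120.0 and 177 in CF at day 120, and at 46.1 and 17.3 in WT and 29.0 and 28.8 in CF at birth. Its log2 fold change was -2.20 ± 0.34 (SE), with an edgeR adjusted p of 0.0063 with the length slope.

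IGF2BP1, a fetal RNA-binding protein, separated the genotypes at a low level. It was at 1.99 and 1.58 CPM in WT day 120 (209 counts in all) and at 0 counts in both WT birth libraries, at least 61.5-fold lower when the WT birth group is set to a minimum of 3 counts and at least 30.7-fold lower with 6, given because low counts were mostly even numbers (70.7% to 83.2% of counts from 1 to 20). In CF it stood at 0.424 and 0.554 CPM at day 120 and 0.885 and 0.576 at birth. The difference between genotypes had an edgeR adjusted p of 0.825 with the 8 libraries and was called with all 20.

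Many connective tissue genes were lower at birth. Of 74 collagen and elastic fibre genes, 12 were lower without overlap (16.2%), none higher and 42 lower in both genotypes, with a median of -0.51 over both genotypes, -0.09 in WT (-0.33 without WT birth replicate 1 to -0.03 without WT day 120 replicate 1) and -0.91 in CF. POSTN, periostin, a matrix protein of growing connective tissue (chromosome 10, 24453914 to 24488210, plus strand), was at 825 and 1563 CPM in WT and 1244 and 1696 in CF at day 120, and at 367 and 385 in WT and 186 and 219 in CF at birth. The log2 fold change was -2.26 ± 0.37 (SE), with an edgeR adjusted p of 0.0564 with the length slope and 0.0451 with all 20 libraries. THBS2, a matricellular thrombospondin, was at 47.4 to 85.1 CPM at day 120, and at 25.4 and 26.6 in WT and 14.2 and 10.6 in CF at birth (-1.75 ± 0.34). COL21A1, a minor fibril-associated collagen outside that list, was called with the length slope, at 114 to 221 against 52.2 to 115 CPM (-0.88 ± 0.23, edgeR adjusted p of 0.0235).

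The major fibrillar collagen COL1A1 overlapped, at 7066 to 11834 CPM at day 120 and 2979.7 to 9208 at birth, with log2 fold changes of -0.54 in WT and -1.49 in CF. ELN, elastin, differed in direction between the genotypes, from 1349 and 1716 to 3116 and 4651 CPM in WT and from 3865 and 2442 to 2298 and 1982 in CF. The CF minus WT difference of ELN, -1.90, had an edgeR adjusted p of 1. CTHRC1, a secreted collagen-associated protein, was at 18.8 and 26.8 CPM in WT day 120, 16.8 and 10.3 in WT birth, 51.9 and 47.1 in CF day 120 and 8.29 and 6.88 in CF birth, with all birth values below all day 120 values.

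**Figure D3:**
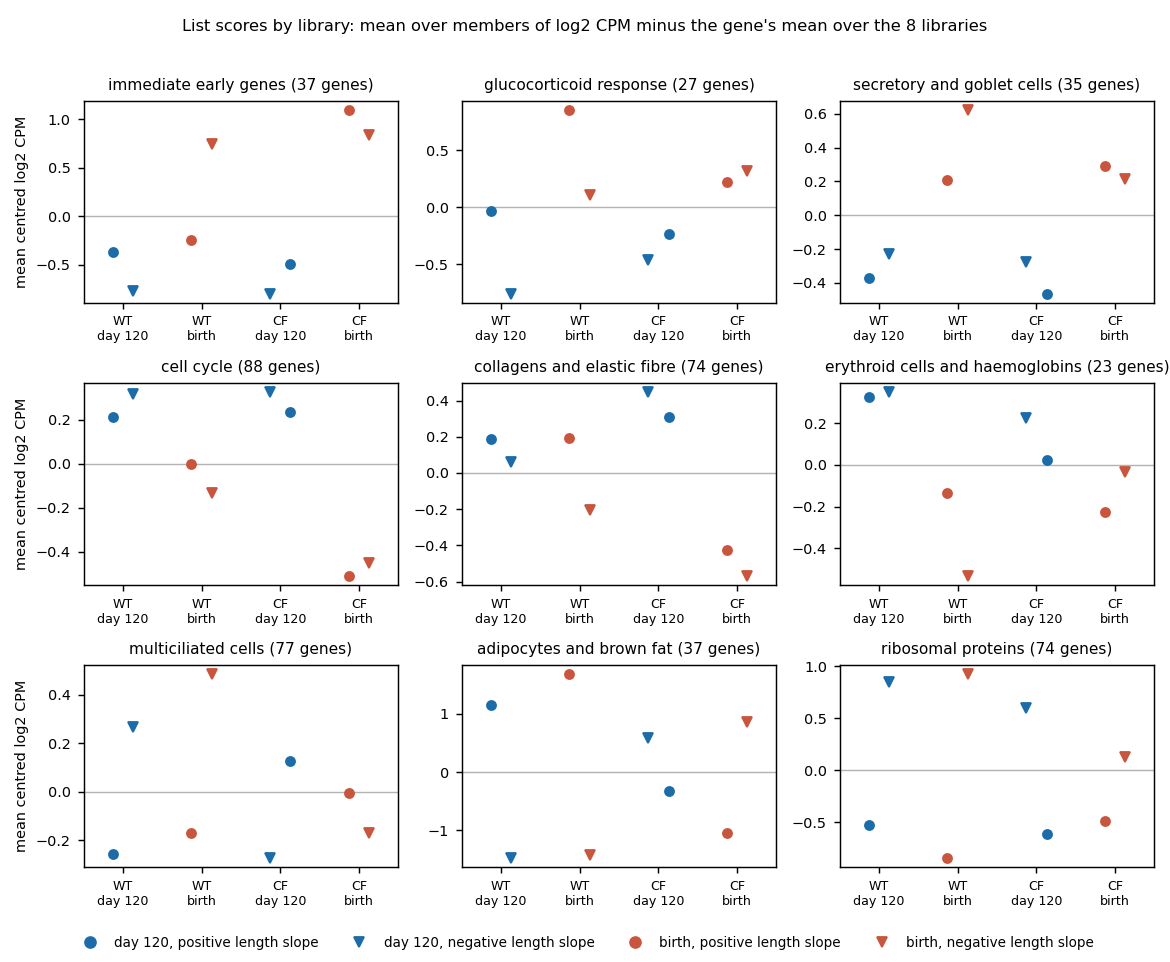
List scores by library, the mean over members of log2 CPM minus each gene's mean over the 8 libraries; points and markers are as in the gene plots and the line marks 0. The cell cycle score lies between 0.21 and 0.33 in all day 120 libraries and between -0.51 and 0.00069 at birth, whereas the adipocyte score ranges from -1.47 to 1.68 with no order by age.

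Basal cells are the stem cells of the airway surface, and keratins separate their states. KRT14, the keratin of activated basal and myoepithelial cells, was at 30.5 and 47.3 CPM in WT and 112 and 65.8 in CF at day 120, and at 9.21 and 14.7 in WT and 16.3 and 26.6 in CF at birth. Birth values lay below all day 120 values, with a log2 fold change of -1.88 ± 0.31 (SE) and an edgeR adjusted p of 0.0063 with the length slope. NGFR, a neurotrophin receptor of basal and Schwann cells, was at 7.85 to 9.16 CPM at day 120 and 2.21 to 3.24 at birth (-1.55 ± 0.25, edgeR adjusted p of 0.0465 with the length slope). KRT5 (455 to 707 against 235 to 643 CPM) and TP63, the basal cell regulator (79.7 to 186 against 61.4 to 166), overlapped, and only KRT14 and NGFR of 26 basal and squamous genes separated the ages.

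Developmental regulators were lower where they differed. Of 58 transcription factors, 4 were lower without overlap (6.90%, against 2.48% of all genes), none was higher and the median was -0.32. SOX12, a SoxC factor of progenitor cells that is outside that list (chromosome 13, 59886571 to 59891041, minus strand), was at 26.1 and 29.0 CPM in WT and 36.4 and 27.6 in CF at day 120, and at 9.40 and 9.28 in WT and 9.496 and 11.7 in CF at birth. It had a log2 fold change of -1.58 ± 0.19 (SE) and an edgeR adjusted p of 0.00949 with the length slope and 0.0153 with all 20 libraries. Its relative SOX11 was at 18.5 to 24.7 against 8.59 to 13.6 CPM (-0.95 ± 0.21). CBX2, a Polycomb subunit, was at 15.8 to 23.1 CPM at day 120 and 7.14 to 11.6 at birth (-1.05 ± 0.23, edgeR adjusted p of 0.0465 with the length slope and 0.0481 with all 20 libraries).

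In the Wnt list 8 of 48 genes were lower without overlap (16.7%), none higher, with a median of -0.29 (-0.55 without WT birth replicate 1 to -0.18 without WT day 120 replicate 1). They covered ligands (WNT10A and WNT16), receptors (FZD2 and FZD10), an agonist (RSPO1), secreted inhibitors (SFRP1 and WIF1) and a target gene (SP5). FZD2 was at 15.9 and 21.7 CPM in WT and 16.04 and 11.3 in CF at day 120, and at 5.95 and 10.2 in WT and 5.99 and 5.49 in CF at birth (-1.23 ± 0.26, edgeR adjusted p of 0.0452 with the length slope). SFRP1 was at 44.5 to 60.5 against 22.4 to 30.7 CPM (-1.02 ± 0.19). In the TGF-beta and BMP list 5 of 41 were lower without overlap (12.2%, against 2.48% of all genes). Among them was the ligand TGFB2 (17.6 to 30.9 against 10.05 to 14.4 CPM, -1.04 ± 0.22). A further 2 were higher (4.88%, against 1.64%), among them the stress-induced ligand GDF15 (0.493 to 0.883 against 1.27 to 2.69 CPM, 1.36 ± 0.40).

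Further genes called lower with the length slope were MDK, a heparin-binding fetal growth factor (53.4 to 143 against 19.5 to 67.2 CPM), PTH1R, the receptor of parathyroid hormone and its related peptide (8.89 to 21.3 against 2.96 to 9.98), and CACNA1G, a T-type calcium channel (13.7 to 17.8 against 4.17 to 7.44). CHODL, a membrane lectin, was at 31.0 to 80.5 CPM at day 120 and 11.1 to 22.8 at birth (-1.89 ± 0.37). MDK and PTH1R overlapped between the ages while CACNA1G and CHODL did not. The remaining named members of that set, MPPED1, SHC2, SLC22A17 and TNFRSF13C, had log2 fold changes of -2.12 to -0.89.

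Erythroid genes were lower at birth in 5 of 23 cases without overlap (21.7%) and higher in none, with a median of -0.45 (from -0.68 without CF day 120 replicate 2 up to -0.31 on leaving out WT day 120 replicate 2). ALAS2, the erythroid enzyme of haem synthesis, was at 18.8 and 73.1 CPM in WT and 26.3 and 15.2 in CF at day 120, and at 2.55 and 0.727 in WT and 1.80 and 3.04 in CF at birth. Its log2 fold change was -3.94 ± 0.70 (SE), the lowest value among genes with a symbol, a mean log2 CPM of at least 1 and no overlap, with an edgeR adjusted p of 0.421. SLC4A1, the red cell anion exchanger (0.206 to 1.39 against 0 to 0.0549 CPM), TRIM10 (0.539 to 4.06 against 0 to 0.0681), HBM and RHAG made up the 5.

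Immediate early genes, the transcription factors and phosphatases that cells switch on within minutes of a stimulus, were high in 3 of the 4 birth libraries. Of 37 tested, 10 were higher without overlap (27.0%), none lower and 28 were higher in both genotypes, and the median was 1.20. FOS was at 11.4 to 21.0 CPM in the 4 day 120 libraries, at 557 in WT birth replicate 2 and at 788 and 787 in CF birth, but at 15.2 in WT birth replicate 1. DUSP1 (39.0 to 83.1 at day 120; 44.5 in WT birth replicate 1; 195, 816 and 761 in the others) and NR4A1 (6.29 to 17.1; 15.5; 79.1, 249 and 174) followed FOS. ATF3 did separate the ages, at 8.96 to 15.8 CPM at day 120 and 24.3, 238, 260.1 and 174 at birth, with a log2 fold change of 3.66 ± 0.69 (SE) and an edgeR adjusted p of 0.0451 with all 20 libraries. Without WT birth replicate 1, the library with the low values, 18 of the 37 were higher without overlap. With that library left out 537 of all 19072 genes were higher without overlap, since fewer libraries separate more easily.

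Some lists had no member that separated the ages. This held for 77 multiciliated cell genes (median 0.10), 74 ribosomal protein genes (-0.15), 46 genes of oxidative phosphorylation (0.12), 45 skeletal muscle genes (-0.12), 37 epithelial junction genes (0.09) and 27 smooth muscle genes (0.11). With 1 library left out these medians took both signs, except that of the junction genes, which lay between 0.00058 (without CF birth replicate 1) and 0.15 (without WT day 120 replicate 1). FOXJ1 was at 336, 750.3, 402 and 343 CPM at day 120 and at 303, 814, 321 and 346 at birth, so replicates of WT differed more than the ages did. Some defence and detoxifying genes were higher without overlap, and none was lower. These were 4 of 45 interferon genes (8.89%), 4 of 43 antioxidant and xenobiotic genes (9.30%) and 3 of 40 genes of acute inflammation (7.5%). The share over all genes was 1.64%. The inflammation list had a median of 0.86 in WT and 0.06 in CF. The WT value rested largely on WT birth replicate 1, with a mean list score of 1.03 against -0.0081 in WT birth replicate 2: it was 0.14 without the first and 1.30 without the second. The CF value took both signs (-0.07 without CF day 120 replicate 1 to 0.20 without CF day 120 replicate 2). The complement list had medians of 0.84 in WT and -0.66 in CF (-0.41 without CF day 120 replicate 1). The hypoxia list stood at -0.41 in WT (-0.65 without WT birth replicate 1) and 0.33 in CF (0.60 without CF day 120 replicate 2).

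The same step was then taken within each genotype. With 2 libraries against 2, edgeR called 0 genes in WT (lowest adjusted p 0.273, for LTF; 843 at an unadjusted p under 0.05, 4.42%) and 0 in CF (0.836, for FCGR2B; 710, 3.72%), and limma-voom also called 0 in each (849 and 752). The test of the CF minus WT difference called 0 (lowest edgeR adjusted p 0.723, for EGLN3; 602 at an unadjusted p under 0.05, 3.16%; limma-voom 0, with 599). DESeq2 called 215 genes in WT (1.13%), 144 in CF (0.755%) and 106 for the difference (0.556%). In the fit with the length slope edgeR called 95 genes in WT (0.498%), 50 higher (0.262%) and 45 lower (0.236%), and 2 in CF (0.0105%), among them the locus LOC101108654, both higher at birth and both called in WT as well. The difference between genotypes passed for 15 genes (0.0786%) in that fit, 10 with the larger value in CF (0.0524%) and 5 with the larger value in WT (0.0262%), and for 2 genes (0.00995%), EGLN3 and IGF2BP1, with all 20 libraries.

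Separation without overlap was found for 2038 genes higher (10.7%) and 2244 lower (11.8%) in WT, and for 2684 higher (14.1%) and 3264 lower (17.1%) in CF. With 2 libraries a side, such separation is frequent even where values are in random order, so these counts alone do not show changes. The 513 genes higher in both made up 25.2% of the WT and 19.1% of the CF genes, and the 743 lower in both 33.1% and 22.8%. A further 312 were higher in WT and lower in CF, 15.3% of the WT and 9.56% of the CF genes. The reverse held for 416, 18.5% and 15.5%. The shares of WT genes are to be read against the 14.1% of all genes higher and 17.1% lower in CF. For the 312 genes the share was no larger than that of all genes. The WT and CF comparisons share no libraries.

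LOC101108654, for which no other name was found, was at 609.9 to 1974 CPM at day 120 and 2319 to 7009 at birth.

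**Figure D4:**
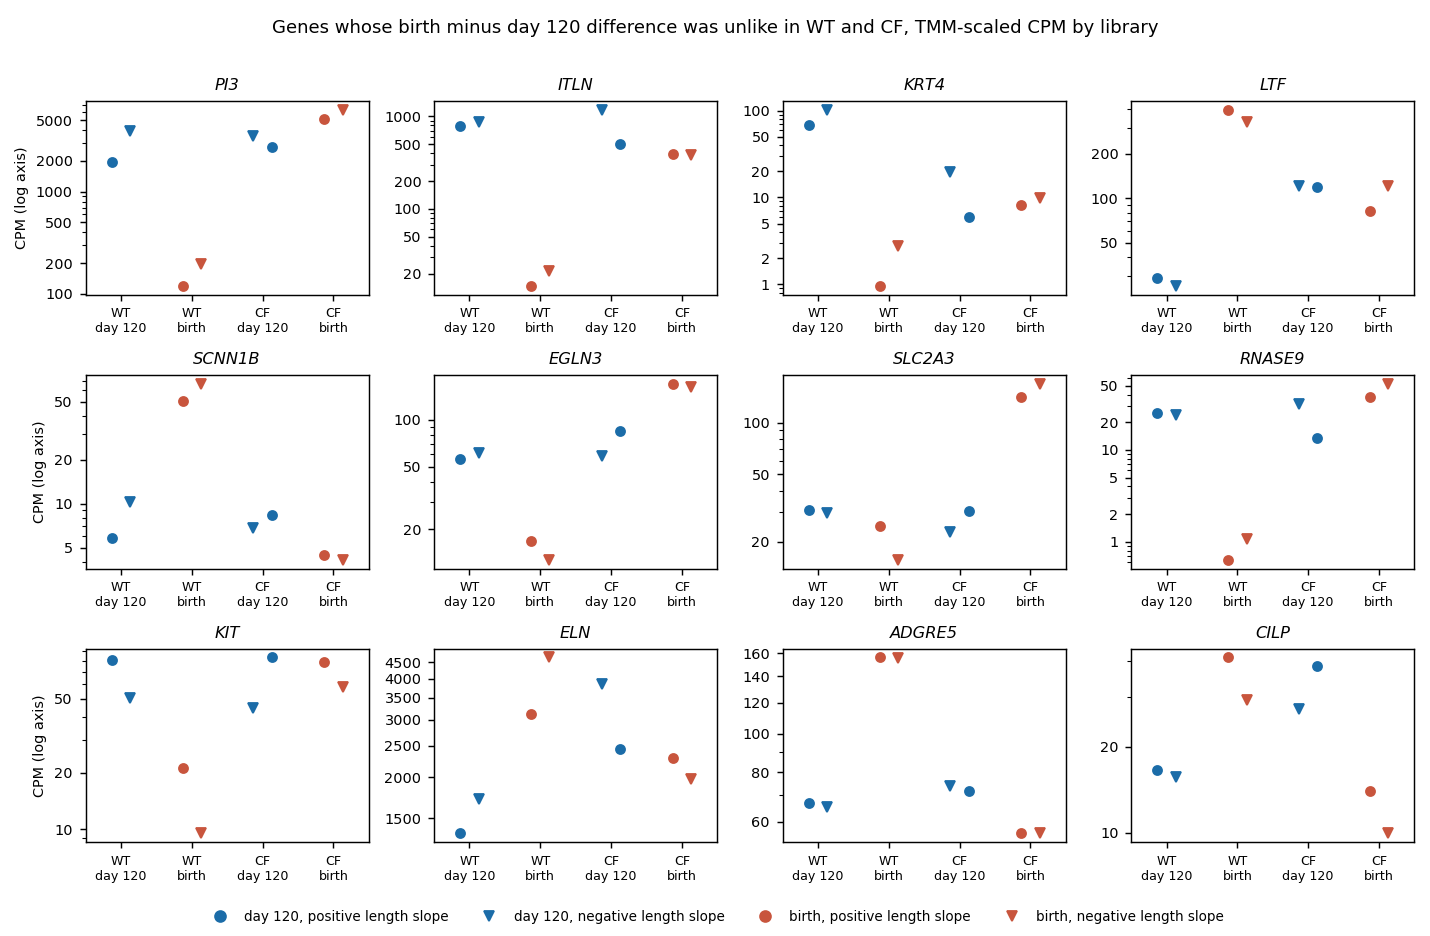
TMM-scaled CPM (log axis) of 12 genes in the 8 libraries, drawn as in the plot of shared genes, for genes whose difference between the ages was unlike in WT and CF. PI3, for example, lies at 1949 and 3959 CPM in WT day 120 and 119 and 198 in WT birth, but between 2737 and 6290.4 in all CF libraries.

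Among the genes called for the difference between genotypes were several epithelial defence and surface proteins. PI3, the elastase inhibitor elafin (chromosome 13, 72941426 to 72942784, plus strand), was at 1949 and 3959 CPM in WT day 120 and 119 and 198 in WT birth, against 3496 and 2737 in CF day 120 and 5094 and 6290.4 in CF birth. The log2 fold change was -4.22 in WT and 0.87 in CF, and the edgeR adjusted p of the difference was 0.0141 with the length slope and 0.899 without it. ITLN, an intelectin that binds microbial sugars, was at 797 and 866 CPM in WT day 120 and 14.6 and 21.4 in WT birth, against 1171 and 505, and 394 and 383, in CF (edgeR adjusted p of the difference 0.0486 with the length slope). LTF, lactoferrin, an iron-binding protein of glands and neutrophils, went the other way in WT, from 29.2 and 25.5 to 396 and 329 CPM, while CF stood at 122 and 119 at day 120 and 81.9 and 122 at birth (0.0366). KRT4, a keratin of stratified and hillock-like epithelium, was at 67.3 and 101 CPM in WT day 120 and 0.956 and 2.78 in WT birth, against 19.7 and 5.88, and 8.29 and 9.94, in CF (0.0366). Each of these 4 genes separated the ages in WT and overlapped or reversed in CF, apart from ITLN, which was lower at birth in both genotypes.

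A second set pointed one way in WT and the other in CF. EGLN3, an oxygen-sensing prolyl hydroxylase, was at 56.4 and 61.0 CPM in WT day 120 and 16.9 and 12.8 in WT birth, but at 58.3 and 84.4 in CF day 120 and 169 and 161 in CF birth; it was also called with all 20 libraries. SLC2A3, the glucose transporter GLUT3, was at 30.6 and 29.7 CPM and then 24.9 and 15.7 in WT, and at 22.8 and 30.5 and then 142 and 169 in CF. With the length slope the edgeR adjusted p of the difference was 0.0366 for EGLN3 and 0.0486 for SLC2A3. ADGRE5, the leukocyte adhesion receptor CD97, was higher at birth in WT (66.8 and 65.2 to 156 and 156) and lower in CF (73.7 and 71.8 to 56.1 and 56.1), and CILP, a cartilage matrix protein, likewise (16.6 and 15.8 to 41.2 and 29.2, against 27.2 and 38.3 to 14.0 and 9.96).

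The neuroendocrine list as a whole had a median of -0.95 in WT and 0.47 in CF (0.08 without CF day 120 replicate 2), with 1 of 22 members, GHRL, lower without overlap over both genotypes. KIT, the stem cell factor receptor of mast and other cells, was called for the difference with the length slope (edgeR adjusted p of 0.0366), at 80.3 and 50.3 and then 21.2 and 9.47 CPM in WT and at 44.7 and 83.3 and then 78.3 and 57.7 in CF. RNASE9 and RNASE12, of the ribonuclease A family, were lower at birth in WT (25.2 and 23.8 to 0.637 and 1.07 CPM; 3.12 and 4.44 to 0.177 and 0.513). In CF, RNASE9 was higher at birth (31.4 and 13.3 to 37.4 and 52.3 CPM) and RNASE12 overlapped. Both lie in a family of related genes, so their reads may be shared.

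SCNN1B and SCNN1G, the beta and gamma subunits of the epithelial sodium channel, had higher values at birth than at day 120 in WT. SCNN1B (chromosome 24, 21058908 to 21085025, plus strand) was at 5.80 and 10.2 CPM in WT day 120 and 50.8 and 66.5 in WT birth, a log2 fold change of 2.87 with an edgeR adjusted p of 0.0302 with the length slope. In CF it was at 6.77 and 8.32 CPM at day 120 and 4.42 and 4.13 at birth, a log2 fold change of -0.82. The CF minus WT difference of -3.69 did not pass in edgeR, with an adjusted p of 0.0636 with the length slope and 0.825 without it, but was called by DESeq2 (adjusted p of 7.2e-07). SCNN1G was at 5.80 and 3.54 CPM in WT day 120, 40.1 and 15.1 in WT birth, 4.77 and 6.84 in CF day 120 and 6.84 and 6.43 in CF birth, and its difference was not called, with an edgeR adjusted p of 0.109 with the length slope and a DESeq2 adjusted p of 0.296.

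FCGBP, MSMB and GCLC, named because they were called in WT with the length slope, and BPIFA1 were far higher at birth than at day 120 in WT, while the secretory list as a whole had the medians of 0.16 in WT and 0.79 in CF given above. FCGBP, a mucus-associated protein, was at 247 and 458 CPM in WT day 120 and 3512 and 3435 in WT birth, and at 195 and 155 and then 502 and 436 in CF. MSMB, a secreted gland protein, was at 11.3 and 41.2 and then 114 and 562 CPM in WT, and at 5.97 and 4.05 and then 13.4 and 21.5 in CF. BPIFA1, a secreted airway surface protein, was at 0.560 and 4.92 and then 147 and 1269.7 CPM in WT, and at 0.919 and 1.37 and then 3.08 and 2.37 in CF. GCLC, the rate-limiting enzyme of glutathione synthesis, was at 24.7 and 18.7 and then 181 and 100.0 CPM in WT, and at 24.7 and 24.9 and then 32.3 and 25.7 in CF. All 4 were higher at birth in both genotypes, and the edgeR adjusted p of their difference with the length slope was 0.168, 0.279, 0.222 and 0.0586. None passed in edgeR, while DESeq2 called the difference for BPIFA1 (adjusted p of 0.00606) and GCLC (0.0102) and not for FCGBP (0.123) or MSMB (1.00).

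The calls with the length slope rested on few libraries. Leaving out 1 library at a time gave 0 to 61 called genes over both genotypes, with 0 without WT day 120 replicate 2 or WT birth replicate 2 and 61 without WT birth replicate 1. AQP5, FCGR2B, KRT14 and NRK were called in 6 of these 8 fits, HEY1 and DLK1 in 5, and ATP7B and SOX12 in 3. With the pair of CF birth libraries summed into 1, the length slope fit called 11 genes over both genotypes, 7 in WT and 0 for the difference.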

How the data were processed

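Read counts per gene were deposited by the authors as whole numbers, 1 table per genotype; STAR 2.6 and featureCounts 1.6.3 of the Subread package are named in the submitters' processing notes. No genome build, annotation or strand setting is stated in the sources used here. Deposited counts from 1 to 20 were even in 70.7% to 83.2% of cases. Of 24478 genes, 8432 carried only an identifier, and 501 of these were named through RefSeq (ARS-UI_Ramb_v3.0, names only).

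Raw counts of the 8 libraries were scaled by TMM, filtered with filterByExpr and tested with the quasi-likelihood test of edgeR 4.0.16 in R 4.3.3 (genotype and age for both genotypes, 1 coefficient per group for WT, CF and their difference), with Benjamini-Hochberg adjustment over 19072 genes and a threshold of 0.05. Alternatives were DESeq2 1.42.0, limma 3.58.1 (voom), other scalings and filters, all 20 libraries, the length slope, a replicate block and leaving out libraries. On simulated counts for the comparison of both genotypes (18755 genes) the test called 5.97% of genes changed 2-fold, 59.7% at 4-fold and 100% at 16-fold. These counts were drawn for each gene on its own and held no shared length slope. CPM has no pseudocount; list scores used log2(CPM + 0.5).

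The members and the 45 gene lists were chosen with earlier results of these data known. Named genes were to be those past the threshold (12 per direction, up to 4 per list) and 33 key genes, of which 31 were tested. Since none passed, the requirement was dropped after the values were seen. The named genes were then the 12 largest per direction with a symbol, a mean log2 CPM of at least 1 and no overlap, genes called with the length slope or with all 20 libraries (within a genotype the 10 largest per direction), and up to 4 members per list without overlap. A few list members beyond these were named after their values were seen. Some genes are not reported here.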

Additional observations from a re-analysis of the deposited data

Results flagged for a closer look

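In 356 sets of 4 libraries of 1 age (each named gene at each age, on the log2 scale), the highest or lowest library was set against the other 3; chance alone makes about 1 in 20 such sets look extreme, so single cases carry little weight. At day 120 WT replicate 1 stood apart with low ADAMTS14 (3.02 CPM) and CDC6 (3.56) and high FLT4 (16.8) and SFTPB (132.9). WT day 120 replicate 2 was low for ADAMTSL1 (16.6), CACNA1G (13.7), CBX2 (15.8), GCLC (18.7), LPO (906.5) and PDK4 (1.89) and high for JUNB (18.0). CF day 120 replicate 1 was high for PRRX1 (62.9) and low for SLC2A3 (22.8), and CF day 120 replicate 2 was high for ALB (17.9) and low for LMAN1L (0.354).

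At birth, WT replicate 1 was high for ALB (34.8 CPM), CPNE6 (1.81) and SCN7A (2.23) and low for ATF3 (24.3), LMAN1L (5.19) and MATN4 (10.7). WT birth replicate 2 was high for FOXJ1 (814), FZD2 (10.2), SQLE (65.3) and TCN1 (159), and CF birth replicate 2 for SOX12 (11.7) and RHAG (0.0686).

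Other genes had both replicates of WT move one way and both of CF the other between the ages. The CF minus WT difference on the log2 scale was 3.86 for CLDN9, 3.20 for EGLN3, 3.25 for FOXI1, 5.09 for PI3, 5.85 for RNASE9, 3.11 for SLC2A3 and 3.38 for UPK1B. It was -1.61 for ADGRE5, -4.95 for C4BPA, -2.57 for CILP, -1.90 for ELN, -4.24 for FAM217A and -3.69 for SCNN1B. IGF2BP1 was at least 61.5-fold lower at birth in WT (at least 30.7-fold with a minimum of 6 counts) and not lower in CF. None of these differences passed the edgeR test of the 8 libraries without a covariate, whose lowest adjusted p was 0.723; with the length slope ADGRE5, CILP, EGLN3, PI3, RNASE9 and SLC2A3 passed.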

How the results depend on the processing

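With 2 libraries a group, the calls depended on the method. Against 0 calls in each comparison with edgeR, DESeq2 called 245 genes over both genotypes, 215 in WT, 144 in CF, 106 for the difference and 21 in both genotypes with the same sign. The length slope gave 34, 95, 2, 15 and 2, all 20 libraries 27 over both genotypes, 7 in WT and 2 for the difference, and these together, an alternative added after seeing the data, 368, 93, 129, 2 and 6. Other alternatives were added after seeing the data. The sign of the length slope as a block called 5 genes over both genotypes. Leaving out 4 libraries chosen for RNA of other tissue called 66. These were WT day 120 replicate 1, WT birth replicate 1, CF day 120 replicate 2 and CF birth replicate 2. With 1 library per group left, spread within groups could not be measured, and no conclusion is drawn from the 66. The CF libraries left had length slopes of -0.118 (day 120) and 0.112 (birth). Age and slope were thus not separated in CF. In CF day 120, replicate 2 had the higher liver score (0.729 against -0.0477) but replicate 1 the higher adipocyte score (0.584 against -0.319).

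Replicate numbers did not pair the samples: same-numbered libraries correlated at 0.885 in WT and -0.762 in CF (15551 genes, deviations from the group means). The replicate block called 5 genes in WT and 0 over both genotypes. Crossing the CF numbers, added after seeing this, called 32 over both genotypes, 215 in WT, 196 in CF, 68 for the difference and 31 in both.

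Leaving out 1 library at a time called 0 to 2 genes over both genotypes (2 without WT birth replicate 1), and 0 to 0 in WT, in CF, for the difference and in both. With the length slope the ranges were 0 to 61, 0 to 59 in WT, 0 to 14 in CF and 0 to 9 for the difference; with the CF birth pair summed they were 11, 7, 0 and 0. Genes without overlap numbered 411 to 568 higher and 569 to 867 lower with 1 library left out, 195 and 690 by library size alone, and 487 and 631 with the CF pair summed. The cause of these shifts was not tested, except that leaving out or summing libraries reduces their number.

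Of 4057 values for single genes, 3657 kept their direction and side of the threshold, 396 came past it and 4 reversed. No gene passed in the main test, so none of these values could lose a call. The 4 reversals were in CF with 1 library left out. KIT ranged from -0.26 (without CF day 120 replicate 1) to 0.61, and was -0.15 without CF birth replicate 1. KRT4 ranged from -1.11 to 0.67 (without CF day 120 replicate 1) and LTF from -0.56 to 0.021 (without CF birth replicate 1). In simulated data of this size 5.97% of 2-fold changes were called, so most such changes may be missed here. The simulated counts were drawn for each gene on its own, without the shared length slope. The share detected in the real libraries was therefore not tested.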
